A study of Mus musculus with 6 samples.

Results

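Plvap-negative endothelial cells of the back of the mouse eye are cells that hold transcripts of the genes of the blood vessel lining and no transcript of Plvap, which encodes the protein of the thin diaphragms that close the pores of fenestrated capillaries. A barcode counted as a cell when it held at least 1000 unique molecular identifiers (UMIs, each standing for 1 captured transcript) from at least 500 genes, with at most 20% of the UMIs from mitochondrial genes. A cell counted as endothelial when at least 3 of the 7 genes Pecam1, Cdh5, Cldn5, Flt1, Kdr, Egfl7 and Emcn had a UMI and the fibroblast gene Dcn had at most 3. Of 66434 barcodes in 6 libraries, 55353 were cells, 1300 of them endothelial. Plvap had no UMI in 754 of the 1300, which are the cells described here, and at least 1 UMI in the other 546.

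The libraries came from mice whose right eyes had received drops of tropicamide, a muscarinic receptor antagonist that relaxes the ciliary muscle, or of saline, after which the muscle stays contracted by the study's account. The tropicamide mice received 6 drops, 1 every 10 min, and were kept for 1 h more; for the saline mice only the same spacing of the drops is given. There were 12 mice in each of the 2 groups, and each library was made from the sclera, choroid and retina of 4 eyes pooled, which gives 3 pools per group. Strain, age and sex are not given, nor any allele, and the extraction text attached to the samples describes bone tissue and was not used. The tropicamide pools held 143, 181 and 119 Plvap-negative cells, and the saline pools 82, 46 and 183.

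The eye has 2 kinds of capillary side by side. Those within the retina have tight junctions, few vesicles and a set of transporters and efflux pumps that carry glucose, amino acids and lipids and keep other molecules out, known together as the blood-retina barrier, and their endothelial cells are without Plvap. Those of the choriocapillaris, under the retinal pigment epithelium, are fenestrated and carry Plvap. In retina and brain the barrier genes are kept on, and Plvap off, by Wnt signalling: Norrin from Müller glia acts on the receptor Fzd4 with Lrp5 and Tspan12, and beta-catenin then acts with TCF and LEF proteins, which bind the core sequence CTTTGA. Arteries, veins and lymphatic-type vessels can be without Plvap as well.

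Promoters of barrier genes are shown first, since all 22 genes of a barrier list were higher in Plvap-negative than in Plvap-positive cells. That list was chosen with earlier results of these data known. Each window runs from 250 bases before to 50 after the start of the gene, is written 5′ to 3′ on the strand of the gene, and comes from RefSeq on the build GRCm38.p6. Of the 22 barrier genes, 17 matched the table, with 27 windows, as some genes have several starts. CTTTGA was searched on both strands, so that it also appears as TCAAAG, and is in capitals. The barrier genes with a single window that held it were Mfsd2a, Abcb1a and Spock2.
Mfsd2a, chr4:122961139-122961438, minus strand: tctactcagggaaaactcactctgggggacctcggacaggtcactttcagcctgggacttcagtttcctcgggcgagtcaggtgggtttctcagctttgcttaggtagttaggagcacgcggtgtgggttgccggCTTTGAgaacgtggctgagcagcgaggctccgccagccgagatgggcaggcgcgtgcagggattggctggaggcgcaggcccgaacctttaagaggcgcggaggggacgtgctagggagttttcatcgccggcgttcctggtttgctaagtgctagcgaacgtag
Abcb1a, chr5:8566841-8567140, plus strand: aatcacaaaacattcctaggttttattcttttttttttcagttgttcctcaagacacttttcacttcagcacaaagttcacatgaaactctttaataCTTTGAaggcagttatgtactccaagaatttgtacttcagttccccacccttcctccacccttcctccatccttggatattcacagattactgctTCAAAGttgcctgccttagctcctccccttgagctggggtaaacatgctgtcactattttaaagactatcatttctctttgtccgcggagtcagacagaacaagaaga
Spock2, chr10:60106007-60106306, plus strand: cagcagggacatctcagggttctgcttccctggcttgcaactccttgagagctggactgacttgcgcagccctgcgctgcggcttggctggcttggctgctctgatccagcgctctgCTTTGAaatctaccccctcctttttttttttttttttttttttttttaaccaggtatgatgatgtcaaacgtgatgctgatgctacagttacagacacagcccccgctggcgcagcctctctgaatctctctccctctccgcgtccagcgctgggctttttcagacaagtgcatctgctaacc
In all, 5 of the 27 barrier windows (18.5%) held the motif, against 5257 of all 32851 windows of the table (16%), so that its share in the barrier genes was near that of promoters at large.

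The label was checked against genes that the choice of cells did not use. All 12 such endothelial markers (among them Tie1, Tek, Esam, Eng and Erg) were detected in the Plvap-negative cells of each pool, with summed levels of 5841, 5487 and 5621 CPM (UMI counts scaled to the same total for each set of cells) in the tropicamide pools and 5192, 4637 and 5069 CPM in the saline pools. The 33062 rods, called where rod genes made up at least 3% of the UMIs, had 163 CPM in these markers. Among the genes that chose the cells, Flt1, a VEGF receptor, was detected in 93.8% of the Plvap-negative cells, Cldn5, the main endothelial claudin, in 89.9%, Egfl7 in 85.5%, Pecam1 in 83.3%, Cdh5, the endothelial cadherin, in 78.1%, Emcn in 74.7% and Kdr in 63.9%. The cells were chosen by the UMI counts of these genes, of Plvap and of Dcn, so that the shares are a description only.

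The cells near the edge of the rule differed from the rest. Of the 754 cells, 290 had all 7 of the endothelial genes, 209 had 6, 92 had 5, 59 had 4 and 104 had the minimum of 3. The 12 markers outside the rule summed to 408 CPM in the cells with 3 genes, against 3761 to 6501 CPM in those with 4 to 7. Müller glia markers ran the other way, at 9121 CPM in the cells with 3 genes, 1422 CPM in those with 4, and 747 to 901 CPM in the others. The 702 cells just outside, with 2 endothelial genes and no Plvap UMI, had 165 CPM in the endothelial markers and 10670 CPM in the Müller glia markers. The cells with 3 genes were thus closer in these lists to the cells left out than to the others. Results that rest on them are pointed out where levels were taken by number of endothelial genes.

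**Figure D1:**
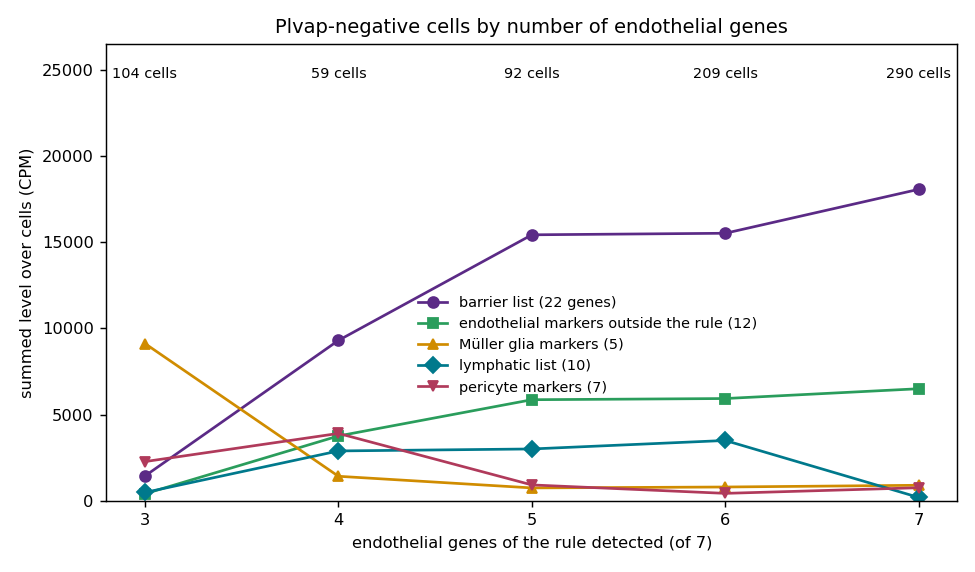
Summed level (CPM, linear axis from 0) of 5 gene lists in the Plvap-negative cells by the number of endothelial genes of the rule detected (3 to 7 of 7), with the number of cells above each point. Barrier genes sum to 1441 CPM in the cells with 3 genes and to at least 15430 CPM in those with 5 or more, while Müller glia markers are at 9121 CPM in the cells with 3 genes.

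The Plvap limit parted cells of different content. Plvap-positive cells held a median of 16 Plvap UMIs, and 48 of the 546 held a single one. Those 48 had 7286 CPM in the barrier list, against 3370 CPM in the cells with at least 2 Plvap UMIs and 14680 CPM in the Plvap-negative cells. When each cell was thinned to 1000 UMIs, 120 of the 546 Plvap-positive cells (22%) showed no Plvap, so that a cell with few UMIs could be counted as negative. The median depth was 5532 UMIs in Plvap-negative and 7332 UMIs in Plvap-positive cells. At the Dcn limit, the 19 cells with 3 Dcn UMIs had 12300 CPM in the barrier list, and the 24 endothelial cells just outside, with 4 to 6, had 9658 CPM.

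Other cell types left traces in single cells. Haemoglobin genes reached 15420 CPM in a tropicamide pool and 18510 CPM in a saline pool, and 4 cells of the 754 held more than 1% of their UMIs in them. Leukocyte markers stood at 393 CPM in the second tropicamide pool, where 2 cells held more than 1% of their UMIs in them, and at 0 to 19.7 CPM in the other pools. Pericyte markers passed 1% in 28 cells and Müller glia markers in 38. Of all barcodes, 522 occurred in more than 1 library, 11 of the Plvap-negative cells had a barcode that another library also held, and none of these was a Plvap-negative cell there. A score against simulated doublets marked 15.8% of the Plvap-negative and 12.6% of the Plvap-positive cells, and these were kept.

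Plvap-negative cells were first set against the Plvap-positive cells of the same pools, to see what the cells without Plvap share beyond it. The genes of the barrier rose together: all 22 genes of the barrier list passed the filter on low counts, and all 22 were higher in Plvap-negative cells, with a median log2 fold change of 2.74. The list was chosen with earlier results of these data known, so that this count is a description and no independent check. The Norrin and Wnt targets Apcdd1 and Lef1, the tight junction genes Ocln and Tjp1 and the efflux pumps Abcb1a and Abcg2 were among the genes that rose. Most genes tested from a list for fenestrated or peripheral capillaries fell, as did the receptor genes Chrm2, Ednrb, Nrp1 and Ramp3. Of 9173 genes tested with edgeR's quasi-likelihood test with the pool as a block and Benjamini-Hochberg adjustment, 2764 passed an adjusted p of 0.05 (30.1%), of which 1409 were higher (15.4%) and 1355 lower (14.8%), and the median of all genes tested was 0.02. At an unadjusted p under 0.05 there were 3668 (40%), 1910 higher (20.8%) and 1758 lower (19.2%). The cells were split on their Plvap counts, and the 9 genes used by the rule are left out of these counts.

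Slco1c1, a transporter of thyroid hormone, stood at 332, 244 and 357 CPM in the Plvap-negative cells of the tropicamide pools and 567, 316 and 384 CPM in those of the saline pools. In Plvap-positive cells it was at 12.2, 3.27 and 25.3 CPM in the tropicamide pools and at 4.04, 0 and 19.4 CPM in the saline pools. The 2 kinds of cell did not overlap, and the log2 fold change was 4.81 ± 0.25 (edgeR adjusted p 1.4e-08). For all fold changes here, ± gives an approximate standard error. It is the size of the log2 fold change divided by the square root of the F statistic of the test. Slc16a1, the monocarboxylate transporter that carries lactate and ketone bodies, averaged 579.8 CPM in Plvap-negative and 19.3 CPM in Plvap-positive cells (4.52 ± 0.21). Mfsd2a, which takes up lipids with docosahexaenoic acid and holds down vesicle transport, averaged 194 and 11.6 CPM (3.59 ± 0.23) in Plvap-negative and Plvap-positive cells. Slc2a1, the glucose transporter GLUT1, was detectable in both kinds of cell, at a mean of 2883 CPM in Plvap-negative and 950.2 CPM in Plvap-positive cells (1.63 ± 0.17).

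The other carriers of the barrier moved the same way. Slc7a5, the large neutral amino acid transporter, averaged 780.1 CPM in Plvap-negative and 73.1 CPM in Plvap-positive cells (3.21 ± 0.21), and Slco1a4, an organic anion transporter, 1179 and 293.6 CPM (1.94 ± 0.15). Tfrc, the transferrin receptor, averaged 112 CPM in Plvap-negative and 12.2 CPM in Plvap-positive cells (2.75 ± 0.19). Of the 22 solute and amino acid transporters that passed the filter, out of a list of 23 that shares members with the barrier list, 16 rose and 2 fell, with a median of 1.52. Among the 7 efflux pumps tested, of a list of 8, 3 rose and 2 fell. Abcb1a, which encodes P-glycoprotein, averaged 1138 CPM in Plvap-negative and 503 CPM in Plvap-positive cells (1.16 ± 0.10), Abcg2 729.7 and 424 CPM (0.73 ± 0.11), and the nucleotide pump Abcc4 517 and 218 CPM (1.25 ± 0.10).

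**Figure D2:**
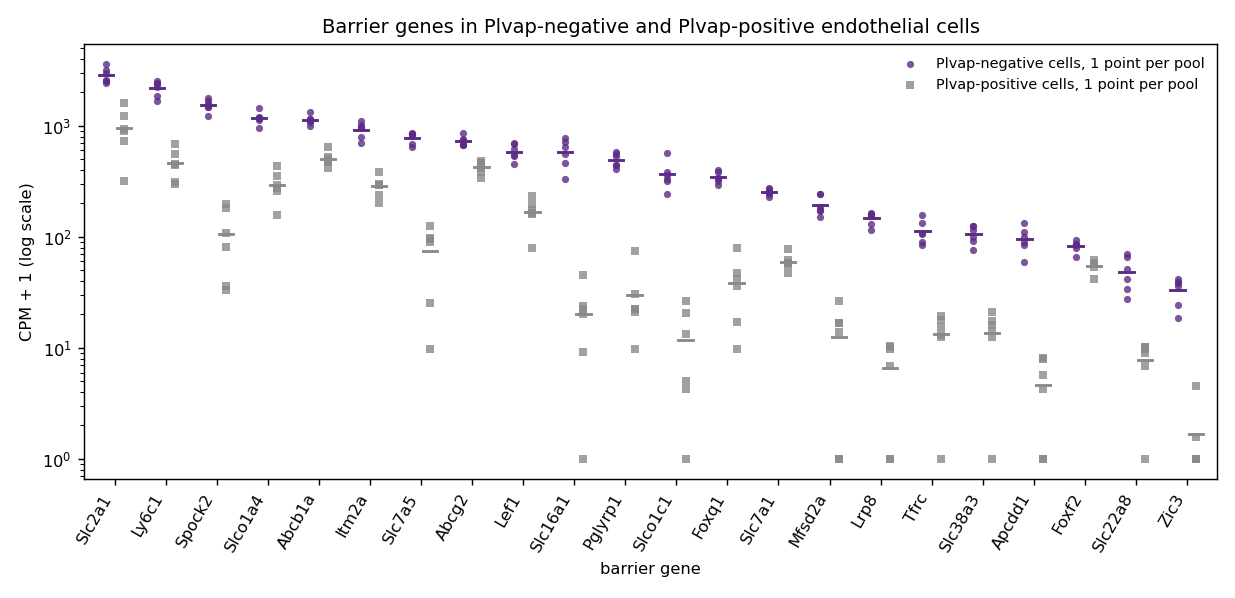
Level of the 22 barrier genes (CPM + 1, log axis) in each of the 6 pools, Plvap-negative cells as purple circles on the left and Plvap-positive cells as grey squares on the right of each gene, with a bar at the mean. All 22 genes have the higher mean in Plvap-negative cells, with Slco1c1 at means of 366.5 and 10.7 CPM and Abcg2 at 729.7 and 424 CPM in Plvap-negative and Plvap-positive cells.

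Genes of Wnt and Norrin signalling and endothelial transcription factors were mixed. Of those named here, Apcdd1, Lef1 and Foxq1 also belong to the barrier list, so that they are not separate from its result. Of 20 Wnt and Norrin genes tested, from a list of 22, 12 rose and 7 fell in Plvap-negative cells, with a median of 0.76. Apcdd1, a membrane inhibitor that Wnt signalling itself switches on, averaged 94.9 CPM in Plvap-negative and 3.65 CPM in Plvap-positive cells (4.26 ± 0.23). Lef1, the transcription factor that pairs with beta-catenin, averaged 585.7 and 167 CPM (1.73 ± 0.13) in Plvap-negative and Plvap-positive cells, and Reck, part of the receptor for Wnt7 ligands in brain vessels, 165 and 38.3 CPM (1.98 ± 0.15). Among 29 endothelial transcription factors tested, of a list of 34, 10 rose and 11 fell. Foxq1, a forkhead factor of barrier vessels, averaged 342 CPM in Plvap-negative and 37.5 CPM in Plvap-positive cells (2.97 ± 0.23), while Foxf1, another forkhead factor, was lower, at 23.4 and 93.5 CPM.

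Junctions, matrix and secreted factors changed gene by gene. Of 14 tight and adherens junction genes tested, from 18 of which 2 belong to the rule, 5 rose and 4 fell. Ocln, which encodes occludin, averaged 134 CPM in Plvap-negative and 15.2 CPM in Plvap-positive cells (3.24 ± 0.21), and Lsr, of the junctions where 3 cells meet, 168 and 28.8 CPM (2.46 ± 0.14). Esam, an adhesion molecule of endothelial junctions, was lower in Plvap-negative cells, at a mean of 544 against 804 CPM (−0.58 ± 0.10). Of 18 basement membrane genes, all tested, 4 rose and 9 fell, among them Fn1, which encodes fibronectin, at means of 838 CPM in Plvap-negative and 92.3 CPM in Plvap-positive cells (3.18 ± 0.15), and Hspg2, which encodes perlecan, at 137 and 379 CPM (−1.47 ± 0.11). Plat, which encodes tissue plasminogen activator, averaged 528 CPM in Plvap-negative and 77.8 CPM in Plvap-positive cells (2.61 ± 0.18), and the chemokine gene Cxcl12 1142 and 422 CPM (1.38 ± 0.10).

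The 15 called genes of highest fold change, among those with a mean of at least 50 CPM and the same direction in all 6 pools, held barrier transporters together with genes outside the barrier list. Car5a, a mitochondrial carbonic anhydrase, averaged 70.6 CPM in Plvap-negative and 1.09 CPM in Plvap-positive cells (5.30 ± 0.32), the phospholipid flippase gene Atp10a 419 and 15.2 CPM (4.66 ± 0.26), and Slc19a3, the thiamine transporter, 55.9 and 1.37 CPM (4.73 ± 0.30). Ccdc141, Tmc7, Islr2, Pglyrp1 and Lrp8 were also among them, at log2 fold changes of 4.07 to 4.99. Sorcs1, Rgs6 and Epha5 were too, at 5.18 ± 0.33, 4.39 ± 0.35 and 4.24 ± 0.46, but were detected in 54, 68 and 45 of the 754 cells. Their pooled levels were 928.5, 866 and 547 CPM in the 163 cells with 3 or 4 endothelial genes, and 8.89, 12.1 and 4.66 CPM in the 591 cells with 5 to 7. Those 3 genes therefore belong to the cells at the edge of the rule, whose Müller glia markers are also high, whereas Car5a stood at 11.7 CPM in the cells with 3 or 4 genes and at 89.3 CPM in those with 5 to 7.

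Most genes tested from the list for fenestrated or peripheral capillaries fell. The genes of largest fall, given after it, were chosen by fold change, whether or not they are on that list. Of 18 genes tested from a list of 22 for capillaries of fenestrated or peripheral beds, which holds Kdr of the rule, 11 fell and 2 rose, with a median of −1.37. Ihh, which encodes the secreted ligand Indian hedgehog, had no UMI in the Plvap-negative cells of any pool, against 53.5, 47.0 and 39.1 CPM in Plvap-positive cells of the tropicamide pools and 89.0, 148 and 37.1 CPM in those of the saline pools. Against a floor of 3 counts over all Plvap-negative cells, or 0.521 CPM, it was at least 97.1-fold lower than the 50.6 CPM of the Plvap-positive cells, where 111 cells held 262 UMIs. Car8, a carbonic anhydrase-related protein, averaged 9.28 CPM in Plvap-negative and 474 CPM in Plvap-positive cells (−5.63 ± 0.26), and Esm1, an endothelial proteoglycan, 4.83 and 120.4 CPM (−5.03 ± 0.41). Cyp26b1, which breaks down retinoic acid, averaged 5.27 and 188.5 CPM (−4.90 ± 0.22) in Plvap-negative and Plvap-positive cells. Exoc3l2, Col13a1, Fam167b, Inhbb, Ces2e, Ripply3, Ltc4s and Cd300lg were also among the 15 lowest by the same rule, at −4.10 to −5.40.

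Receptors for vasoactive and growth factor signals were lower as well. Chrm2, the M2 muscarinic receptor and so 1 of the targets of tropicamide, stood at 17.3, 13.3 and 13.9 CPM in the Plvap-negative cells of the tropicamide pools and at 3.43, 5.90 and 2.57 CPM in those of the saline pools. In Plvap-positive cells it was at 292, 163 and 221 CPM in the tropicamide pools and 166, 183 and 139 CPM in the saline pools. No pool overlapped between the kinds of cell (−4.32 ± 0.22, edgeR adjusted p 9.8e-09), and 29 of the 754 Plvap-negative cells held a Chrm2 UMI. Chrm3, the M3 receptor, chosen after its values were seen, averaged 48.8 CPM in Plvap-negative and 254 CPM in Plvap-positive cells (−2.46 ± 0.27). Ednrb, the endothelin B receptor, averaged 23.9 and 499 CPM (−4.18 ± 0.36) in Plvap-negative and Plvap-positive cells, and Ramp3, the partner of adrenomedullin receptors, 22.6 and 362 CPM (−4.02 ± 0.18). Of the 18 genes of vessel tone tested, from a list of 28, 4 rose and 9 fell.

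VEGF co-receptors and other surface genes followed. Of 12 VEGF and angiopoietin receptor genes tested, from 14 of which 2 belong to the rule, 2 rose and 6 fell, among them Nrp1, a VEGF co-receptor, at 175 CPM in Plvap-negative and 712 CPM in Plvap-positive cells (−2.03 ± 0.11), and Tie1 at 156 and 427 CPM (−1.45 ± 0.10). Of 21 genes of leukocyte adhesion and inflammation tested, from a list of 27, 10 fell and 3 rose. Eng, the co-receptor for TGF-beta and BMP ligands that is called endoglin, averaged 512 CPM in Plvap-negative and 1393 CPM in Plvap-positive cells (−1.47 ± 0.09), and in its list 8 of 16 genes tested, from 19, fell and 3 rose. Of 11 genes of antigen presentation tested, from 16, 4 fell and none rose, at an unadjusted p under 0.05 either, with B2m at means of 468 CPM in Plvap-negative and 801 CPM in Plvap-positive cells (−0.80 ± 0.08). Plpp1 and Plpp3, which remove phosphate from lipid mediators, averaged 152 and 123 CPM in Plvap-negative cells, against 1678 and 1163 CPM in Plvap-positive cells (−3.49 ± 0.11 and −3.22 ± 0.11).

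**Figure D3:**
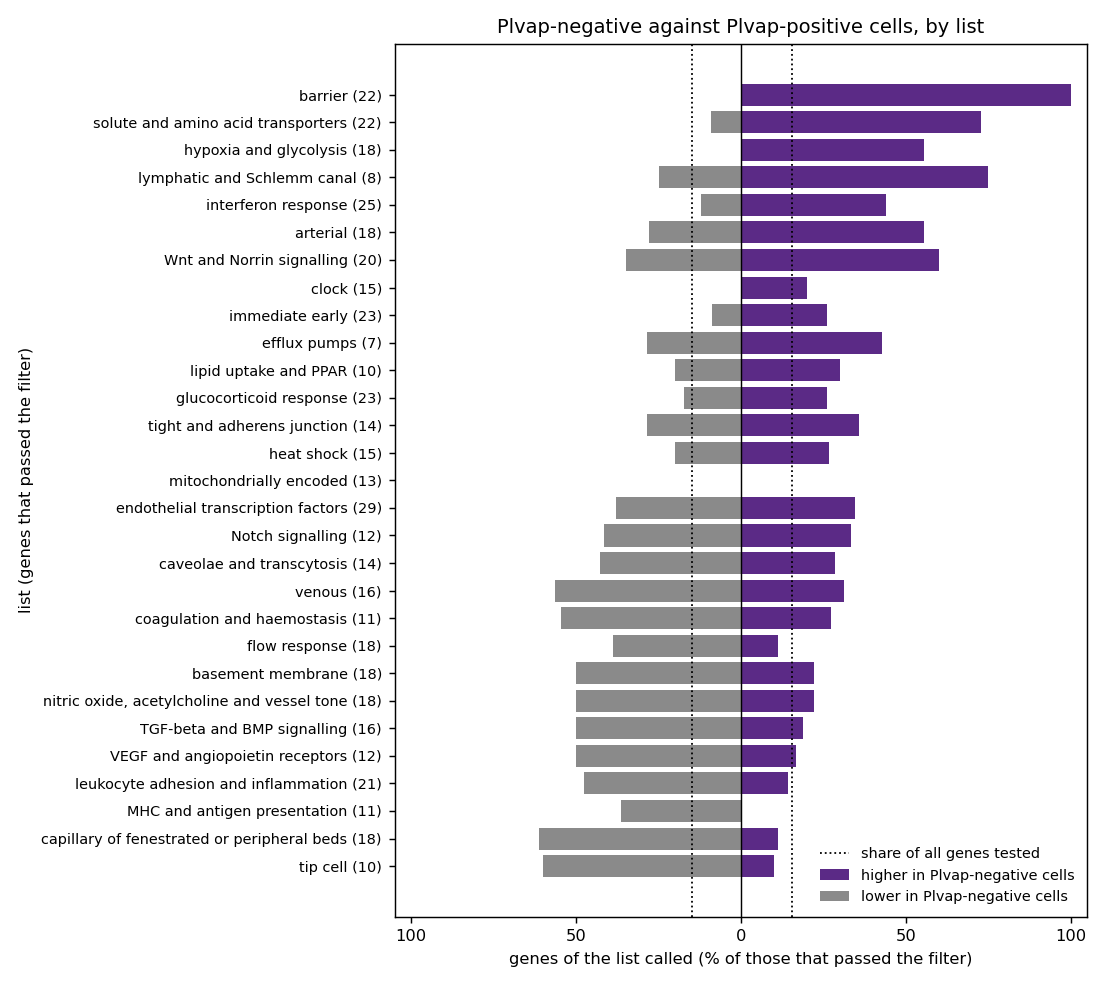
Share of the tested genes of each of 29 lists that were called higher (purple, right) or lower (grey, left) in Plvap-negative against Plvap-positive cells, in percent on a linear axis from 0 both ways, with the number of genes tested in brackets. Dotted lines mark the shares over all genes tested, 15.4% higher and 14.8% lower; the barrier list lies at the higher end and the lists of fenestrated capillaries and tip cells at the lower end.

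Vessel type lists were divided. Of 18 arterial genes tested, from 20, 10 rose and 5 fell in Plvap-negative cells, with a median of 0.47, and of 16 venous genes tested, from 18, 5 rose and 9 fell, with a median of −0.80. Mgp, matrix Gla protein, averaged 1470 CPM in Plvap-negative and 2568 CPM in Plvap-positive cells (−0.84 ± 0.11), Ephb4, the receptor of venous endothelium, 55.7 and 167 CPM (−1.54 ± 0.11), and Vwf, which encodes von Willebrand factor, 235 and 428.5 CPM (−0.86 ± 0.11). Of 8 lymphatic genes tested, from 10, 6 rose and 2 fell, and of 10 tip cell genes tested, from 13, 1 rose and 6 fell. Of the Notch list 4 rose and 5 fell of 12 tested, from 15, of the flow response list 2 and 7 of 18, from 20, of the caveolae list 4 and 6 of 14, from 16 with 1 gene of the rule, and of the coagulation list 3 and 6 of 11, from 15.

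Lists of general state are to be set against the shares called over all genes tested, 15.4% higher and 14.8% lower. No list was tested as a set, so the counts are descriptions. Of 25 interferon response genes, all tested, 11 rose and 3 fell in Plvap-negative cells, with Irf7 at means of 98.2 CPM in Plvap-negative and 34.7 CPM in Plvap-positive cells (1.20 ± 0.19) and Ifitm2 at 425 and 1202 CPM (−1.54 ± 0.11). Of 18 hypoxia and glycolysis genes tested, from 21 that include Slc2a1, 10 rose and none fell, at an unadjusted p under 0.05 either, among them Adm, which encodes adrenomedullin, at 49.4 and 9.96 CPM (2.32 ± 0.26) in Plvap-negative and Plvap-positive cells. None of the 13 mitochondrially encoded genes was called by edgeR, and none had an unadjusted p under 0.05. Rod markers rose in 6 of 11, with a median of 0.41, and Müller glia markers in 3 of 4 tested of 5, with a median of 3.06, among them Glul, which encodes glutamine synthetase, at means of 961 CPM in Plvap-negative and 229 CPM in Plvap-positive cells (1.99 ± 0.16). Glul stood at 2647 CPM in the Plvap-negative cells with 3 or 4 endothelial genes and at 525 CPM in those with 5 to 7. Among immediate early genes 6 rose and 2 fell of 23 tested, and among glucocorticoid response genes 6 rose and 4 fell of 23. Of 15 clock genes tested, from 17, 3 rose, of 15 heat shock genes 4 rose and 3 fell, and of 10 lipid uptake genes tested, from 16, 3 rose and 2 fell. Of the 12 endothelial markers outside the rule, 9 fell and 1 rose. The part of other cells' transcripts in these values was not tested.

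Genes of arteries, veins and lymphatic vessels were detected among the Plvap-negative cells beside barrier genes. Each cell was thinned to 1000 UMIs, so that all cells were read at 1 depth, and called for a list when at least 2 of its genes were detected. Barrier genes were then found in 84.4% of the Plvap-negative cells (95% exact binomial interval 81.6% to 86.9%), 58.8% of the Plvap-positive cells and 12.5% of 3000 rods drawn at random. Genes of the list differed in the rods at full depth, with Slc38a3 in 36.0% and Slc16a1 in 32.9% of them but Slco1a4 in 0.533% and Mfsd2a in 0.0333%. Without thinning, the shares for the barrier list were 97.0% of Plvap-negative cells, 95.1% of Plvap-positive cells and 44.3% of rods, at median depths of 5532, 7332 and 2474 UMIs. Arterial genes were found in 51.7% of the Plvap-negative and 49.6% of the Plvap-positive cells, against 2.37% of the rods, and venous genes in 30.9% and 47.6% of these cells, against 0.167% of the rods. Lymphatic genes were found in 5.17% of the Plvap-negative cells, 3.48% of the Plvap-positive cells and 0% of the rods, which allows up to 0.123%. The intervals cover counting error only, and the shares in the 2 kinds of cell were not tested against each other.

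Arterial and venous genes were detected apart in some cells and together in others, so that these calls do not name a vessel type. Of the 754 cells thinned to 1000 UMIs, 269 (35.7%) had arterial genes alone, 112 (14.9%) venous genes alone, 121 (16.1%) both and 252 (33.4%) neither. The barrier list summed to 16130 CPM in the cells with arterial genes alone, 15141 CPM in those with venous genes alone, 14745 CPM in those with both and 12929 CPM in those with neither, so that barrier genes were present in all 4 classes. Lymphatic genes summed to 3889 CPM in the cells with venous genes alone and to 420.1 to 1099 CPM in the others. Nr2f2, a vein and lymphatic factor, belongs to the venous list.

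The lymphatic list set apart 41 cells that had at least 2 of its genes and fewer than 5 barrier genes at full depth. They held 6276 CPM of Ccl21a, the chemokine that draws dendritic cells, 2532 CPM of Mmrn1, 2273 CPM of Lyve1, the hyaluronan receptor, 1932 CPM of Reln and 567 CPM of Prox1, the lymphatic master factor. The 577 cells with at least 5 barrier genes and fewer than 2 lymphatic genes held 0.754 CPM of Ccl21a, 0 of Mmrn1, 0.251 CPM of Lyve1 and 5.03 CPM of Prox1. The reverse held for Slco1a4 and Mfsd2a, which had no UMI in the 41 cells and stood at 1496 and 236 CPM in the 577. The 41 cells came from all pools, 12, 12 and 3 from those given tropicamide and 5, 3 and 6 from those given saline. A further 73 cells met both conditions, with a median of 13420 UMIs, and 63 met neither, with 65630 CPM of haemoglobin genes and 5121 CPM of pericyte markers. Of all 754 cells only 4 held more than 1% of their UMIs in haemoglobin genes, so that the haemoglobin level rests on few cells. These subsets were cut on the same genes, so that their levels are descriptions and no test was made.

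The number of Plvap-negative cells was then compared between tropicamide and saline. They made up 1.79%, 1.54% and 1.15% of the cells of the tropicamide pools, and 1.10%, 0.537% and 1.98% of those of the saline pools, and the groups overlapped. The means were 1.49% ± 0.326 in tropicamide pools and 1.21% ± 0.729 in saline pools (SD, n = 3 each; two-sided exact permutation test p = 0.6, where the smallest p that 3 against 3 allows is 0.1). Of the endothelial cells, 44.8%, 51.7% and 74.8% were Plvap-negative in the tropicamide pools, against 76.6%, 76.7% and 60% in those given saline. Of the tropicamide pools, 2 lay below all saline pools and 1 lay among them, with means of 57.1% ± 15.7 and 71.1% ± 9.61 in tropicamide and saline pools (SD, n = 3 each; exact permutation p = 0.2). Adjusted over the 5 shares compared, each p was 0.8.

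The kinds of cell within the Plvap-negative cells were compared in the same way. Cells with barrier genes, thinned as above, made up 84.2% ± 4.21 in tropicamide and 84.8% ± 2.02 in saline pools (SD, n = 3 each; exact permutation p = 0.8). Cells with arterial genes made up 54.3% ± 1.18 and 49.3% ± 6.50 in tropicamide and saline pools (SD, n = 3 each; exact permutation p = 0.4), and cells with venous genes 30.3% ± 4.72 and 31.6% ± 2.88 (SD, n = 3 each; exact permutation p = 0.8). Each group's range overlapped the other's in all 3 shares. With 3 pools a group no share could pass 0.05, so that these p-values do not show the shares to be equal.

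**Figure D4:**
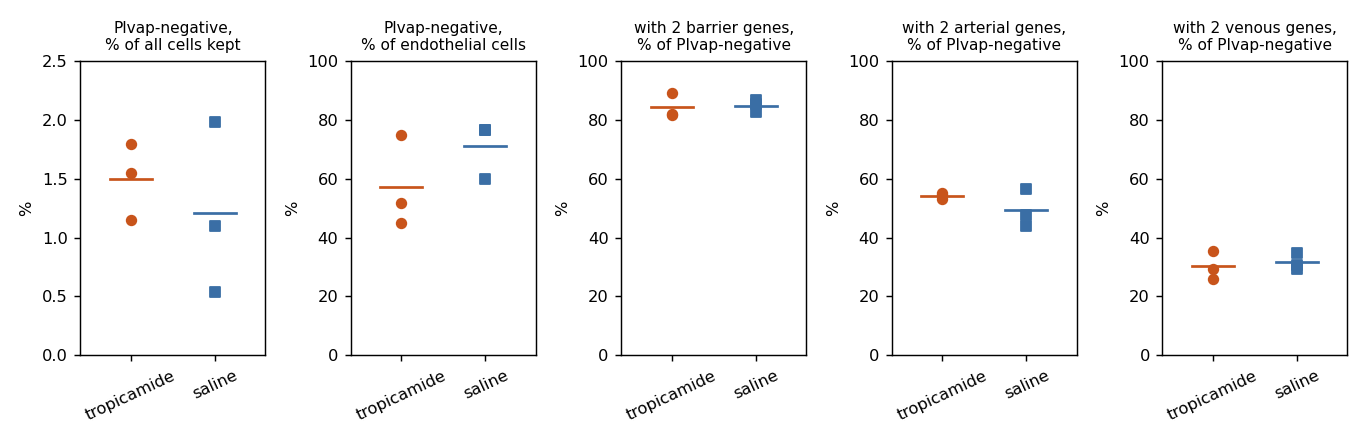
The 5 shares in each pool, tropicamide (orange circles) left of saline (blue squares), with a bar at the mean of 3 pools; the vertical axes are percentages from 0, to 2.5 in the first panel and to 100 in the others. Tropicamide and saline pools overlap in each panel.

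Gene levels in the Plvap-negative cells were compared between tropicamide and saline on the counts summed per pool. No gene passed an adjusted p of 0.05 among 9651 tested with edgeR's quasi-likelihood test (0%), although 760 (7.87%) were under an unadjusted p of 0.05, 317 higher (3.28%) and 443 lower (4.59%), and DESeq2 called 35 of 7963 (0.44%). Pools did not overlap between the groups for 1384 of the 9651 genes (14.3%), 646 higher (6.69%) and 738 lower (7.65%) under tropicamide. The 10 genes of smallest p were Cdh13, Ifi27l2a, Ednrb and Bcl2l1, with higher levels under tropicamide, and Khdrbs3, Immp2l, Sobp, Icam1, Pdzrn3 and Hmcn1, with lower ones. Values below describe differences that did not pass the test with edgeR, although some of these genes were called under other settings. Summed Müller glia markers also differed between the groups, at 1878, 1527 and 893 CPM in tropicamide pools and 3151, 2118 and 2876 CPM in saline pools, which do not overlap. The 7 fibroblast markers summed to 313.3, 326 and 407 CPM in tropicamide pools and 194, 121 and 311.6 CPM in saline pools, so that the nearest pools were almost level. That sum includes Dcn, whose UMIs the choice of cells had limited. The log2 fold change lay above 0 for 11 of 11 rod markers (median 0.25), 7 of 7 pericyte markers (0.48), 4 of 4 smooth muscle markers tested (1.07), 4 of 4 fibroblast markers tested (0.63) and 3 of 4 markers of retinal pigment epithelium tested (2.18), and below 0 for 5 of 5 Müller glia markers (−1.02). The part of these transcripts in the results below was not tested.

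Cdh13, an atypical cadherin that binds adiponectin, stood at 131, 146 and 118 CPM in the tropicamide pools and at 54.8, 59.0 and 50.8 CPM in the saline pools. The groups did not overlap (log2 fold change 1.30 ± 0.16, edgeR adjusted p 0.128), but 61.2% of its UMIs in the first tropicamide pool came from 1 cell. Ednrb stood at 29.5, 47.6 and 41.7 CPM in the tropicamide pools and at 5.14, 8.85 and 10.9 CPM in the saline pools (2.15 ± 0.34, edgeR adjusted p 0.214), with UMIs in 48 of the 754 cells. The groups were apart in both genes, on UMIs of few cells. Ednrb averaged 499 CPM in Plvap-positive cells. The 15 genes of lowest fold change against Plvap-positive cells, a set chosen after their values were seen that holds Ednrb and Chrm2, summed to 121, 167 and 149.5 CPM in the tropicamide and 87.4, 67.8 and 74.5 CPM in the saline pools. The 21 genes outside the rule of the list for fenestrated or peripheral capillaries summed to 4297, 5981 and 4952 CPM in tropicamide pools and 3559, 3855 and 3860 CPM in saline pools. That list holds Fabp4, Igfbp5 and Sparc, the last also a gene of the basement membrane list. In the second tropicamide pool the top cell for each gave 88.0%, 39.8% and 21.9% of its UMIs. In the second saline pool 1 cell gave 86.2% of the Igfbp5 UMIs. The list was not summed without these genes. Neither sum overlapped between the groups. The first counts Ednrb and Chrm2 themselves and was not taken without them, so it does not show that other transcripts moved with them. The part of transcripts that lead in Plvap-positive cells in the levels of Ednrb and Chrm2 was not tested. Chrm2 was likewise at 17.3, 13.3 and 13.9 CPM in the tropicamide pools against 3.43, 5.90 and 2.57 CPM in the saline pools (2.12 ± 0.45, edgeR adjusted p 0.331).

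Icam1 stood at 161, 196 and 234 CPM in the tropicamide pools and at 440.4, 661 and 391 CPM in the saline pools (−1.33 ± 0.23, edgeR adjusted p 0.258). All saline pools lay above all tropicamide pools, and in the second saline pool 54.5% of the UMIs came from 1 cell. Vcam1, another adhesion molecule for leukocytes, stood at 31.5, 62.3 and 59.1 CPM in tropicamide pools and 156, 195 and 73.3 CPM in saline pools (−1.37 ± 0.39, edgeR adjusted p 0.413). Of its 66 UMIs in the second saline pool, 40 (60.6%) came from 1 cell. Over the 18 genes of leukocyte adhesion and inflammation that passed the filter, of 27, 6 lay above 0 and 12 below, with a median of −0.18 against −0.01 over all genes tested.

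**Figure D5:**
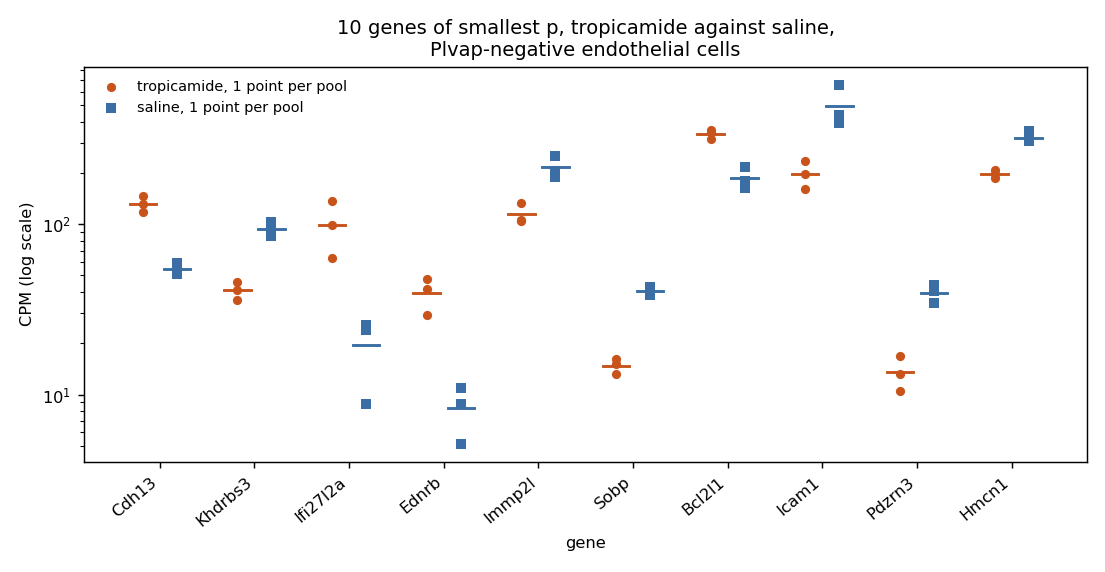
Level (CPM, log axis) in each pool of the 10 genes of smallest p in the Plvap-negative cells, tropicamide (orange circles) left of saline (blue squares), with a bar at the mean of 3 pools. The groups do not overlap in any of the 10 genes, and no gene passes the adjusted threshold, with adjusted p values of 0.128 to 0.258.

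The other genes of smallest p were Ifi27l2a, at 136, 98.7 and 63.7 CPM in tropicamide pools and 25.7, 8.85 and 23.8 CPM in saline pools (2.21 ± 0.34), where 1 cell gave 62.7%, 36.9% and 49.1% of its UMIs in the tropicamide pools, and Bcl2l1, which encodes the cell survival protein Bcl-xL, at 316, 349 and 356 CPM in tropicamide pools and 179.9, 162 and 218 CPM in saline pools (0.85 ± 0.14). Both had an edgeR adjusted p of 0.214. Khdrbs3, an RNA-binding protein, stood at 45.8, 41.3 and 35.9 CPM in tropicamide pools and 94.3, 85.5 and 103 CPM in saline pools (−1.22 ± 0.16, edgeR adjusted p 0.153). Its pooled level was 227.5 CPM in the cells with 3 or 4 endothelial genes and 30.7 CPM in those with 5 to 7, and it was detected in 35.9% of the rods. Immp2l, Sobp, Pdzrn3 and Hmcn1 were lower under tropicamide, at log2 fold changes of −0.93, −1.43, −1.50 and −0.71 and edgeR adjusted p values of 0.214, 0.214, 0.258 and 0.258.

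Barrier genes showed no common shift with treatment. Of the 22, 8 lay above 0 and 14 below, with a median of −0.07, and none was called by edgeR; at an unadjusted p under 0.05, 1 was higher and 2 were lower. Slc2a1 was at 3183, 2970 and 3620 CPM in tropicamide pools and 2553, 2560 and 2413 CPM in saline pools (0.37 ± 0.12, edgeR adjusted p 0.526), without overlap. Tfrc was at 89.5, 82.6 and 105.4 CPM in tropicamide pools and 156, 106 and 134 CPM in saline pools (−0.54 ± 0.17, edgeR adjusted p 0.5). Slco1c1, at 332, 244 and 357 CPM in tropicamide pools and 567, 316 and 384 CPM in saline pools, overlapped.

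Genes of the early response to stimuli were lower in most cases, again without a call. Of 23 immediate early genes tested, from 24, 7 lay above 0 and 16 below, with a median of −0.27 against −0.01 over all genes tested, and 9 were lower at an unadjusted p under 0.05, a share to set against 4.59% over all genes. Fos, a subunit of the AP-1 transcription factor, was at 4105, 4257 and 4548 CPM in tropicamide pools and 5955, 7734 and 5587 CPM in saline pools (−0.59 ± 0.15, edgeR adjusted p 0.336). Jun, its partner, was at 2961, 2646 and 2945 CPM in tropicamide pools and 3929, 4808 and 3625 CPM in saline pools (−0.54 ± 0.14, edgeR adjusted p 0.348), and Fosb differed by −0.63 ± 0.15 (edgeR adjusted p 0.333). In each of the 3 genes the second saline pool, which has the fewest cells (46), was the highest.

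Targets of the glucocorticoid receptor leaned the other way. Of 23 tested, from 25, 15 lay above 0 and 8 below, with a median of 0.14. Fkbp5, a co-chaperone of that receptor, was at 94.6, 115 and 105.4 CPM in tropicamide pools and 32.6, 20.7 and 54.0 CPM in saline pools (1.39 ± 0.25, edgeR adjusted p 0.258), and Ddit4, an inhibitor of mTOR signalling, at 183, 146 and 179.6 CPM in tropicamide pools and 85.7, 59.0 and 104 CPM in saline pools (0.96 ± 0.19, edgeR adjusted p 0.315). Both parted the groups, as did Errfi1 at 0.67 ± 0.15 (edgeR adjusted p 0.331). Fkbp5 UMIs were found in 15.4% and Ddit4 UMIs in 24.3% of the 3000 rods. Glul, which belongs to the list and is high in Müller glia, ran opposite at −0.78 ± 0.18 (edgeR adjusted p 0.331).

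Several other lists lay to one side of the median of all genes tested, −0.01, with no gene called by edgeR. Of 17 vessel tone genes tested, from 28, 14 lay above 0 and 3 below, with a median of 0.38, and of the 8 tip cell genes tested, from 13, all lay above 0, with a median of 0.45, led by Col4a1 at 0.57 ± 0.14 (edgeR adjusted p 0.331). Smad6, an inhibitor of BMP signalling, differed by 0.68 ± 0.16 (edgeR adjusted p 0.331) and stood at 197, 196 and 166 CPM in tropicamide pools and 92.5, 121 and 133 CPM in saline pools. Of 9 lymphatic genes tested, from 10, all lay below 0 with a median of −0.82. In the second saline pool the 7 lymphatic markers summed to 5551 CPM, against 356 to 1546 CPM in the tropicamide pools and 519 to 608 CPM in the other saline pools. The top cell for each gene in that second saline pool gave 89.3% of the Reln, 86.2% of the Lyve1, 77.5% of the Mmrn1 and 44.8% of the Ccl21a UMIs. Fabp4, a fatty acid binding protein, was at 26.4, 861 and 189 CPM in tropicamide pools and 3.43, 0 and 4.50 CPM in saline pools, with 88.0% of the UMIs of the second tropicamide pool in 1 cell, and its fold change is not given.

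Whether the change with tropicamide differed between Plvap-negative and Plvap-positive cells was tested with an interaction term. Of 10351 genes tested, 1 (0.00966%) passed an adjusted p of 0.05 with edgeR, and 457 (4.42%) had an unadjusted p under 0.05, 166 of them with a higher (1.6%) and 291 with a lower (2.81%) log2 change in the Plvap-negative cells; DESeq2 called 2 (0.0193%), both higher, and Penk was not among them. That gene was Penk, which encodes proenkephalin, with a log2 difference of −12.88. It had UMIs in 4 of the 754 Plvap-negative cells. Its pooled level was 164.3 CPM in the Plvap-negative cells with 3 or 4 endothelial genes and 0.423 CPM in those with 5 to 7. The level thus rests on cells near the edge of the rule. Plvap-positive cells held 44.8 CPM. In the third saline pool, 165 of the 170 UMIs of the Plvap-negative cells (97.1%) came from 1 cell. The call was lost without that pool and without the second tropicamide pool, in 6 of 14 alternatives in all, and the size of the difference rests on the small constant that the fit adds to zero counts. With edgeR no other gene passed.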

How the data were processed

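The 6 libraries were droplet single-cell libraries, deposited as raw UMI counts per gene and barcode over 33696 genes. Per the file headers, the authors used Cell Ranger 8.0.1 to make these counts; STAR and the build GRCm39 are named in the submitters' processing notes. The libraries held 30761887 to 49477707 UMIs, and the Plvap-negative cells of a pool 339019 to 1556415. Raw counts were summed per pool and cell group and tested in R 4.3.3 with edgeR 4.0.16 (filterByExpr, TMM, quasi-likelihood test, Benjamini-Hochberg adjustment); DESeq2 1.42.0 was an alternative. The comparison with Plvap-positive cells had the pool as a block, as both come from the same eyes. The replicate number was left out of the main fit of tropicamide against saline. Deviations from the group means correlated at −0.05, 0.10 and 0.13 between same-numbered pools. Pools of unlike number were not compared, so these values cannot show whether the pools were paired. Shares were tested on the logit scale by exact permutation over 20 arrangements. Levels are CPM per pool, or pooled over cells for subsets of cells. Doublets were scored with 2 simulated per barcode and kept. The edgeR fits were tested on simulated counts with known fold changes.

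Members and lists were chosen with earlier results of these data known. Named were the 15 highest and 15 lowest called fold changes with at least 50 CPM, the 10 of smallest p with at least 20 CPM for treatment, and up to 4 genes per list by p and by level. A pool is 4 eyes of different mice, so p-values measure the spread between pools.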

Additional observations from a re-analysis of the deposited data

Results flagged for a closer look

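Penk, which encodes proenkephalin, was the gene whose change with tropicamide differed between Plvap-negative and Plvap-positive cells past the threshold, by a log2 difference of −12.88 (edgeR interaction term, adjusted p 0.000299). It had UMIs in 4 Plvap-negative cells. Its pooled level was 164.3 CPM in the Plvap-negative cells with 3 or 4 endothelial genes, near the edge of the rule, and 0.423 CPM in those with 5 to 7. Plvap-positive cells held 44.8 CPM. In the third saline pool, 97.1% of its UMIs in Plvap-negative cells came from 1 cell. The call was lost in 6 of 14 alternatives, among them without the third saline pool and without the second tropicamide pool, and the part of that cell in the difference was not tested.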

How the results depend on the processing

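The fold changes given for Plvap-negative against Plvap-positive cells kept their direction and call under the alternatives in which the gene passed the filter: at least 16 of 18 for each gene, except Sorcs1 (10), Epha5 (12) and Rgs6 (15), which were not tested in the others. The number of genes called there, 2764, was 1551 with Dcn at 0 UMIs and 705 after thinning to 1000 UMIs, where fewer genes passed the filter, and ran from 1955 to 2805 with 1 pool left out; without the replicate block it was 2763. With tropicamide against saline, edgeR called 0 genes; the count was 35 with DESeq2, 430 with no filter on low counts, 98 with Dcn at 0 UMIs, 4 with at least 4 endothelial genes, 13 with the replicate number as a block, and, in alternatives chosen after seeing the data, 3 with at least 5 endothelial genes and 2 in cells with at least 5 barrier genes. It ran from 0 to 9 with 1 pool left out (4 without the first and 9 without the third tropicamide pool). The cause of these differences was not tested. The named genes kept their direction where tested, and some were called: Cdh13 in 6 of 19 alternatives, Ifi27l2a in 5 of 19, Icam1 in 4 of 19, Bcl2l1 and Khdrbs3 in 3 of 19 and Ednrb and Fabp4 in 4 of 17. For the difference in the tropicamide change the count of 1 was 2 with DESeq2, 75 with no filter, 0 with at most 10% mitochondrial UMIs, 2 with doublets removed, 4 with Dcn at 0 UMIs and 0 with at least 5 endothelial genes (chosen after seeing the data), and ran from 0 to 5 with 1 pool left out (5 without the first tropicamide pool, 0 without the second, 0 without the third saline pool). Log2 ratios of shares, tropicamide over saline, moved as follows. For Plvap-negative cells among endothelial cells, −0.32 ran from −0.559 (without the third tropicamide pool) to −0.168 (without the first) with 1 pool left out. For cells with arterial genes, 0.14 ran from 0.0601 (without the first saline pool) to 0.247 (without the second), and was 0.0740 with doublets removed, 0.0352 not thinned with at least 500 UMIs and 300 genes, and 0.0433 not thinned, where the pools did not overlap (exact permutation p = 0.1, the smallest possible). For Plvap-negative cells among all cells, 0.31 ran from −0.0458 (without the second saline pool) to 0.868 with 1 pool left out. For cells with barrier genes, −0.01 ran from −0.0523 to 0.0107, with 0.0103 without the first and 0.0107 without the second tropicamide pool and 0.00503 without the first saline pool, and was 0.0126 not thinned and 0.00261 not thinned with at least 500 UMIs and 300 genes. For cells with venous genes, −0.06 ran from −0.187 to 0.0368, with 0.0368 without the third tropicamide pool and 0.0156 without the second saline pool, and was 0.0249 not thinned and 0.0187 not thinned with at least 500 UMIs and 300 genes. With 46 to 183 Plvap-negative cells a pool, genes of few UMIs had little depth behind their values.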
